A study of Triticum dicoccoides with 12 samples.

Results

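The transcripts described here responded to water stress mainly in the roots of A24-39, a genotype of wild emmer wheat. They were selected on the stress responses themselves, as probe sets whose stressed minus well-watered difference was 1.0 or more in size in A24-39 and under 0.5 in Y12-3. The rule found 61 of the 61115 probe sets that were not controls, of which 15 were higher and 46 were lower in stressed A24-39 roots. They are called rising and falling members below, by the sign of their A24-39 difference.

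Y12-3 and A24-39 are genotypes of the wild tetraploid from which durum wheat was domesticated, and both were grown in a greenhouse. Roots were taken at 4 weeks of age from plants kept well-watered or left without water for 7 days from the 4-leaf stage, and every group held 1 genotype under 1 watering regime. There were 3 arrays per group and 12 in all, which the labels call biological replicates without saying if an array held 1 plant or a pool, so the spread between arrays may be partly technical. The values are the deposited score per probe set, given here as deposited units, and since no source used here states its log base or scaling, no fold change is drawn from it.

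Roots are the first organ to meet drying soil. Plants under water deficit accumulate abscisic acid, protective proteins such as dehydrins and small osmolytes, and they slow cell division, cell wall extension and nutrient uptake. Earlier work treated Y12-3 as resistant and A24-39 as susceptible to drought. An Affymetrix probe set is a group of short oligonucleotides that together report 1 transcript, here designed from bread wheat sequences. Its signal depends on the amount of RNA and on how well that RNA matches the probes, so a lower level of a transcript in one genotype and a sequence difference under the probes cannot be told apart from signal alone. In whole roots, fewer cells of a type and less RNA per cell cannot be told apart either.

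Only 3 members carried a gene symbol in the array annotation, and the symbols were uninformative locus names. LOC780595 belonged to a rising member and LOC100049018 to 2 falling members. Of all probe sets tested, 1273 had 1 symbol and 59842 had none, and members without a symbol are named by their probe set. No member lay in a list of dehydrins, water channels, cell wall loosening proteins, cytoskeleton proteins, hydrogen peroxide removal enzymes, nutrient uptake proteins or abscisic acid signalling genes, but these lists matched only 1, 0, 1, 2, 2, 0 and 0 probe sets. The 4 probe sets of shoot marker genes had group means between -0.78 and -0.11, all under the background level defined next.

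Background was set at 0.04 deposited units, the highest group mean among 85 control probe sets with no wheat target. A value at or under it was taken as not above background, and a difference whose lower side lies there is a lower bound. The third well-watered arrays of both genotypes stood somewhat apart from the other 2 of their groups. In well-watered Y12-3, replicate 3 had the lowest value for 32 of the 46 falling members. With both of these arrays left out, limma called 1399 probe sets with a more positive and 365 with a more negative response in Y12-3 than in A24-39, against 33 and 19 with all arrays, and the rule found 19 rising and 42 falling members, of which 13 and 25 were among the 61. Without well-watered Y12-3 replicate 3 alone, 15 rising and 31 falling members still met the rule.

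The members were a small share of the A24-39 response. In A24-39, 454 probe sets differed by 1.0 or more upwards, and 15 of them (3.3%) were members. Of these 454, Y12-3 differed by 1.0 or more in the same direction for 384 and by 0.5 to 1.0 for 54, and by 0.5 or more in the opposite direction for 1. Downwards, 690 probe sets passed 1.0 in A24-39, and 46 (6.67%) were members. Y12-3 passed 1.0 in the same direction for 537 of these and lay between 0.5 and 1.0 for 107. The mirror rule, a size of 1.0 or more in Y12-3 and under 0.5 in A24-39, found 60 probe sets, 32 rising and 28 falling.

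**Figure D1:**
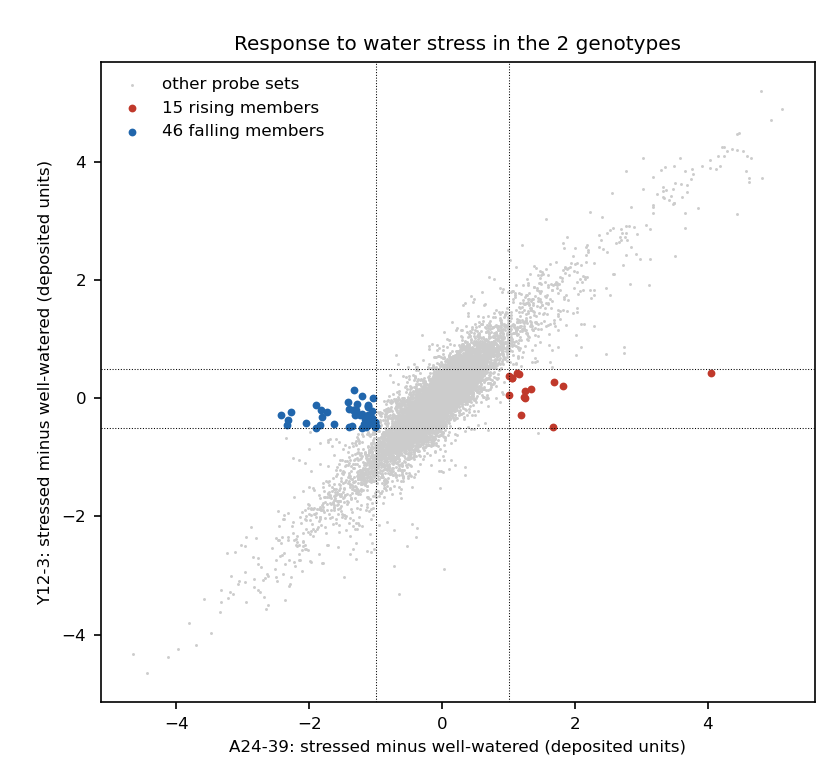
Stressed minus well-watered difference in A24-39 (horizontal) and in Y12-3 (vertical), in deposited units, with 1 point per probe set and each difference taken between means of 3 arrays. Dotted lines mark the thresholds of the rule. The cloud of probe sets runs along the diagonal. The 15 rising members (red) and 46 falling members (blue) were cut from its edge by the thresholds, and 1 rising member stands alone at 4.05.

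The rule fixes what the members do under stress, so their responses are given only as a description. Among the 15 rising members the median difference was 1.23 in A24-39 (range 1.0 to 4.05) and 0.21 in Y12-3 (range -0.48 to 0.43), beside 0.02 and -0.01 over all probe sets. Only 4 of them reached 1.5 in A24-39. Among the 46 falling members the median was -1.22 in A24-39 (range -2.42 to -1.0) and -0.33 in Y12-3 (range -0.5 to 0.14), and 12 reached a size of 1.5. The Y12-3 difference had the same sign as that of A24-39 in 13 of 15 rising and 43 of 46 falling members.

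In the limma fit of all probe sets, at an adjusted p under 0.05, the A24-39 response was called for 14 rising and 35 falling members, beside 5.35% of all probe sets called higher and 5.36% called lower. Nothing is read from these counts, since the rule used that contrast. The Y12-3 response was called for 2 rising members, Ta.3034.1.A1_at and Ta.14572.1.S1_at, and for 7 falling ones, beside 11.1% higher and 8.1% lower in all. The difference between the 2 responses was called for 1 rising and 10 falling members, beside 0.0311% of all probe sets with a lower and 0.054% with a higher response in Y12-3. With same-numbered arrays of both genotypes treated as pairs within each watering regime, that difference was called for 6 rising and 14 falling members. Over all probe sets that fit called 63 with a lower and 90 with a higher response in Y12-3, against 19 and 33 without pairs. The A24-39 arrays did not overlap between waterings for 13 rising members, beside 15.9% of all probe sets with stressed arrays all higher, and for 45 falling members, beside 11.2% with stressed arrays all lower.

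Members near the thresholds differed little from probe sets just outside. The smallest rises inside were 1.003 for Ta.28623.1.S1_x_at and 1.007 for Ta.9658.1.S1_at, and Ta.14145.1.S1_at at 0.929 and TaAffx.12664.1.S1_at at 0.912 lay just outside. The smallest falls inside were -1.003 for Ta.18257.1.A1_x_at and -1.006 for Ta.7378.34.S1_at, against -0.993 outside for both Ta.10329.17.S1_at and TaAffx.53053.1.S1_at. On the Y12-3 side of the rising members, Ta.2632.3.S1_x_at at -0.484 and Ta.6081.1.S1_a_at at 0.425 were inside, and Ta.3784.3.S1_x_at at 0.520 and Ta.8942.1.S1_at at 0.550 were outside. For the falling members, Ta.18486.1.S1_at at -0.499 and Ta.12413.1.S1_at at -0.498 were inside, and Ta.13989.1.S1_at at -0.512 and Ta.10329.6.S1_at at -0.513 were outside.

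Ta.6081.1.S1_a_at had the largest rise of all members. In stressed A24-39 its values were 3.94, 3.24 and 3.88 in replicates 1, 2 and 3, against -0.27, -0.36 and -0.47 in well-watered A24-39. In Y12-3 they were -0.65, -0.58 and -0.71 well-watered and -0.28, -0.48 and 0.10 stressed. The transcript was thus far above background in stressed A24-39 alone, and the other 3 groups had means at or under background. Its A24-39 difference of 4.05 ± 0.18 (moderated SE, n = 3 per group, limma adjusted p = 8.77e-07) is a lower bound, and the Y12-3 difference was 0.43 ± 0.18.

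Ta.9140.2.S1_at, Ta.28052.1.S1_at and Ta.24312.1.S1_at had a similar form at a lower level, with stressed A24-39 highest. A further group mean was above background in Ta.28052.1.S1_at, well-watered A24-39 at 0.28, and in Ta.24312.1.S1_at, stressed Y12-3 at 0.07. Ta.9140.2.S1_at read 2.38, 1.28 and 1.57 in stressed A24-39 and -0.05, -0.22 and 0.04 in well-watered A24-39, while its 6 Y12-3 values lay between -0.20 and 0.13. The stressed A24-39 arrays lay above all others, and the A24-39 difference was 1.82 ± 0.22. Ta.28052.1.S1_at read 2.11, 1.37 and 2.43 in stressed and 0.54, 0.05 and 0.26 in well-watered A24-39, with Y12-3 between -0.39 and 0.31, and its A24-39 difference was 1.69 ± 0.25. Ta.24312.1.S1_at read 1.12, 0.85 and 1.58 in stressed A24-39 and stayed between -0.24 and 0.20 in the other 9 arrays. These 3 were the only rising members to stay in the choice whichever of the 12 arrays was left out. Ta.6081.1.S1_a_at was not among them, because its Y12-3 difference passed 0.5 without stressed Y12-3 replicate 2.

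The rising members with all 4 group means above background differed in form. Ta.2632.3.S1_x_at was higher in well-watered Y12-3, at 1.48, 1.18 and 1.68, than in well-watered A24-39, at 0.05, 0.62 and 0.63. Under stress A24-39 read 2.30, 1.51 and 2.50 and Y12-3 read 1.42, 0.49 and 0.97. The genotypes were therefore in opposite order in the 2 watering regimes, with no overlap of arrays in either. The difference was 1.67 ± 0.29 in A24-39 and -0.48 ± 0.29 in Y12-3.

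A second member of that cluster, Ta.2632.1.S1_x_at, gave 1.19, 0.94 and 1.63 for well-watered Y12-3 and 1.47, 0.49 and 0.91 for the stressed plants. For A24-39 it gave -0.01, 0.42 and 0.43 and then 1.69, 0.95 and 1.73. The genotypes were again apart in well-watered roots, but their stressed arrays overlapped. Its differences were 1.18 ± 0.28 in A24-39 and -0.29 ± 0.28 in Y12-3. Both probe sets carry the suffix x, which marks probes that can bind other transcripts, so they need not be separate measurements.

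Ta.27661.1.S1_at read 3.72, 2.68 and 2.84 in stressed A24-39 against 1.78, 1.35 and 2.39 in well-watered A24-39, with Y12-3 between 1.33 and 2.31. Replicate 3 of well-watered A24-39 lay close to the lowest stressed array. The A24-39 difference was 1.24 ± 0.34 (limma adjusted p = 0.0444), and this call was lost in 10 of the alternatives run. Ta.4601.2.S1_at, the member annotated to LOC780595, read 2.72, 1.68 and 1.02 in stressed A24-39 and 0.40, 1.05 and 0.27 in well-watered A24-39. These groups overlapped, and Y12-3 stayed between 0.35 and 0.61 throughout. Its A24-39 difference of 1.23 ± 0.35 (limma adjusted p = 0.048) was 0.77 without stressed A24-39 replicate 1, which no longer passed the threshold.

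**Figure D2:**
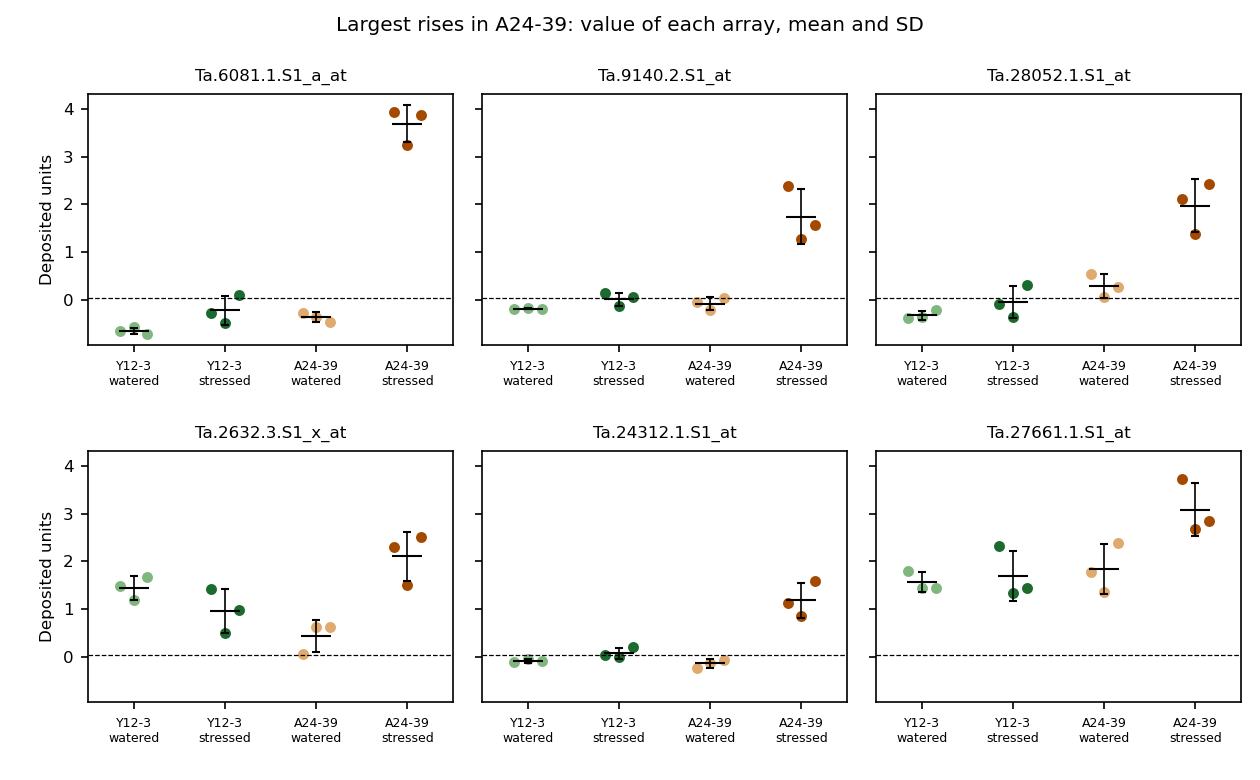
Deposited units of each array (points), with the mean (horizontal line) and SD (vertical bar) of 3 arrays, for the 6 largest rises by transcript cluster. The dashed line is the background level of 0.04. In 4 of the panels stressed A24-39 stands alone well above the dashed line, while in the panels of Ta.2632.3.S1_x_at and Ta.27661.1.S1_at all groups have means above background.

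Ta.18507 was the cluster with the most members, 3 of its 4 probe sets, and held the largest fall. Ta.18507.1.S1_s_at went in A24-39 from 1.41, 1.40 and 2.69 in well-watered roots to -0.55, -0.60 and -0.59 under stress. Its 6 Y12-3 values lay between -0.70 and -0.27. Only well-watered A24-39 was above background, and within it replicate 3 was the highest by far. The A24-39 difference was -2.42 ± 0.27 and the Y12-3 difference -0.28 ± 0.27.

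The other 2 members of the cluster had the same order of groups. Ta.18507.1.S1_at fell from 0.90, 0.79 and 1.52 to -0.65, -0.66 and -0.67 in A24-39, a difference of -1.73 ± 0.15. Ta.18507.2.S1_a_at fell from 0.25, 0.31 and 1.07 to -0.79, -0.76 and -0.73, a difference of -1.30 ± 0.17. Replicate 3 was again highest among the well-watered arrays in both. Without it the A24-39 differences of Ta.18507.1.S1_s_at, Ta.18507.1.S1_at and Ta.18507.2.S1_a_at were -1.99, -1.5 and -1.04. The fourth probe set, Ta.18507.2.S1_x_at, missed the rule with differences of -0.76 in A24-39 and -0.22 in Y12-3.

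Ta.9905.1.S1_at, Ta.23066.2.S1_s_at and Ta.26151.1.A1_at shared this form. Ta.9905.1.S1_at read 2.0, 1.98 and 2.94 in well-watered and 0.08, 0.11 and -0.27 in stressed A24-39, with Y12-3 between -0.51 and 0.08. Ta.23066.2.S1_s_at read 1.44, 1.46 and 2.15 in well-watered and -0.66, -0.61 and -0.64 in stressed A24-39, with Y12-3 between -0.80 and -0.33. Ta.26151.1.A1_at read 1.98, 1.53 and 3.06 in well-watered and -0.14, 0.17 and -0.25 in stressed A24-39, with Y12-3 between -0.53 and -0.03. In all 3 the well-watered A24-39 arrays stood above all the others, with replicate 3 the highest, and both Y12-3 group means were at or under background. Their A24-39 differences were -2.33 ± 0.22, -2.32 ± 0.15 and -2.27 ± 0.30, each a lower bound in size. Without well-watered A24-39 replicate 3 they were -2.01, -2.09 and -1.83.

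The falling members with all 4 groups above background were of another kind. Ta.25381.1.S1_s_at fell in A24-39 from 2.23, 2.43 and 3.04 to 0.21, 0.53 and 0.81, a difference of -2.05 ± 0.26. In Y12-3 it read 1.58, 1.54 and 1.43 well-watered and 0.64, 1.63 and 1.03 stressed. The Y12-3 arrays thus lay between the 2 A24-39 groups, except that 1 stressed array reached down among the stressed A24-39 values. TaAffx.104994.1.S1_at read 1.96, 2.78 and 1.99 for A24-39 and 1.86, 2.64 and 1.87 for Y12-3 in well-watered roots, close to each other array by array. Under stress A24-39 read 0.49, 0.47 and 0.89 and Y12-3 read 1.24, 2.15 and 1.68, so the genotypes separated in stressed roots only. Its differences were -1.63 ± 0.30 in A24-39 and -0.43 ± 0.30 in Y12-3.

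Ta.12413.1.S1_at had the widest spread of all named members. It read 3.25, 4.03 and 3.10 in well-watered and 1.74, 0.84 and 2.09 in stressed A24-39. In Y12-3 it read 2.53, 3.55 and 1.03 well-watered and 1.37, 1.94 and 2.32 stressed. The A24-39 groups did not overlap, while replicate 3 of well-watered Y12-3 lay under all 3 stressed Y12-3 arrays. The A24-39 difference of -1.90 ± 0.57 missed the threshold (limma adjusted p = 0.0609), and the Y12-3 difference was -0.50 ± 0.57. Without replicate 3 of well-watered Y12-3 the Y12-3 difference was -1.17, over the threshold of the rule. Ta.23219.1.A1_x_at read 2.81, 2.99 and 3.06 in well-watered and 1.47, 2.04 and 1.27 in stressed A24-39, and 2.70, 2.51 and 2.08 and then 1.62, 2.64 and 1.62 in Y12-3. Its Y12-3 groups overlapped and its A24-39 groups did not, with differences of -0.47 ± 0.28 and -1.36 ± 0.28. Without replicate 3 of well-watered Y12-3, the Y12-3 difference was -0.64 for Ta.23219.1.A1_x_at and -0.56 for TaAffx.104994.1.S1_at, so neither met the rule.

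**Figure D3:**
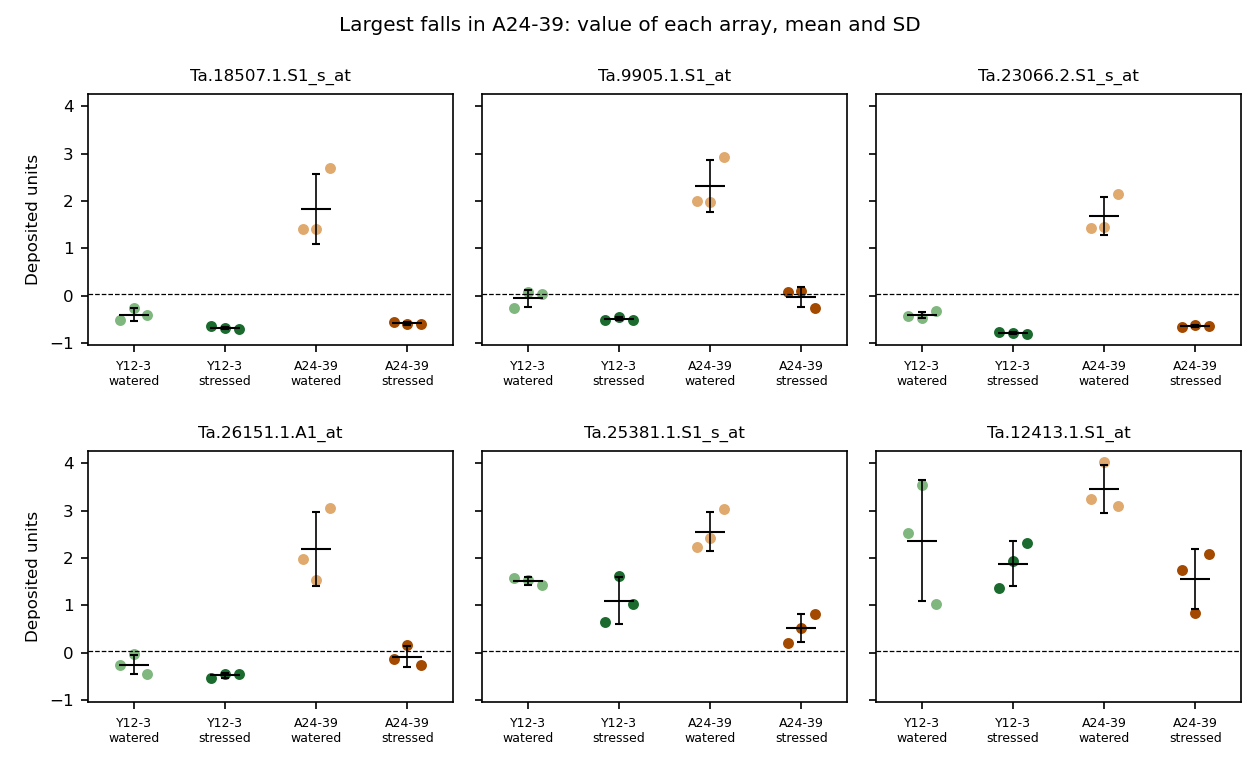
Deposited units of each array (points), with the mean (horizontal line) and SD (vertical bar) of 3 arrays, for the 6 largest falls by transcript cluster. The dashed line is the background level of 0.04. In the first 4 panels only the well-watered A24-39 mean lies above it, and in the panels of Ta.25381.1.S1_s_at and Ta.12413.1.S1_at all 4 group means do.

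The members' levels sorted them into forms. The rule bears on these too, since a response seen in A24-39 and not in Y12-3 leaves the genotypes apart in at least 1 regime, so the counts are a description. Among rising members the group medians were 0.47 and 0.50 for Y12-3, well-watered and stressed, and 0.57 and 2.1 for A24-39. Y12-3 minus A24-39 had a median of -0.10 in well-watered roots, with 10 of 15 within 0.5, and of -1.14 in stressed roots, where all 15 were below 0. Among falling members the medians were 0.31, 0.11, 1.76 and 0.07 in the same order of groups. Y12-3 minus A24-39 had a median of -1.04 in well-watered roots, where 42 of 46 were below 0, and of -0.07 in stressed roots, where 19 were above and 27 below 0.

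Most members in both directions therefore had a mean of both Y12-3 groups near or under the lower of the 2 A24-39 levels. To count this, the mean of both Y12-3 groups was placed on a scale from 0, the well-watered A24-39 level, to 1, the stressed A24-39 level. Of the 15 rising members, 11 lay under 0.25, 3 of them under -0.25, while 4 lay between and none lay over 0.75. Of the 46 falling members, 28 lay over 0.75, 6 of them beyond 1 by over 0.25, with 13 between and 5 under 0.25. The 5 were TaAffx.104994.1.S1_at, TaAffx.143997.1.S1_s_at, Ta.19239.1.S1_x_at, Ta.24976.1.S1_x_at and TaAffx.128414.1.A1_x_at, in which the mean of both Y12-3 groups was near or above well-watered A24-39. Without the replicate 3 arrays of well-watered roots, 11 rising and 5 falling members lay under 0.25 and 26 falling ones over 0.75.

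Background bounds many of these. Neither Y12-3 group was above it for 4 rising and 19 falling members, and both were for 8 and 24. All 19 of those falling members were among the 28 near or under the stressed A24-39 level. For them a Y12-3 fall is a lower bound, so a small Y12-3 difference there does not show that the transcript did not respond. Limma still called a Y12-3 fall in some of them, such as Ta.5507.1.S1_at at -0.46 and Ta.19041.1.S1_at at -0.48. Stressed A24-39 was above background for 23 of 46 falling members. With the 23 tag and tryptophan control probe sets alone as background, at -0.10, neither Y12-3 group was above it for 2 rising and 12 falling members.

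**Figure D4:**
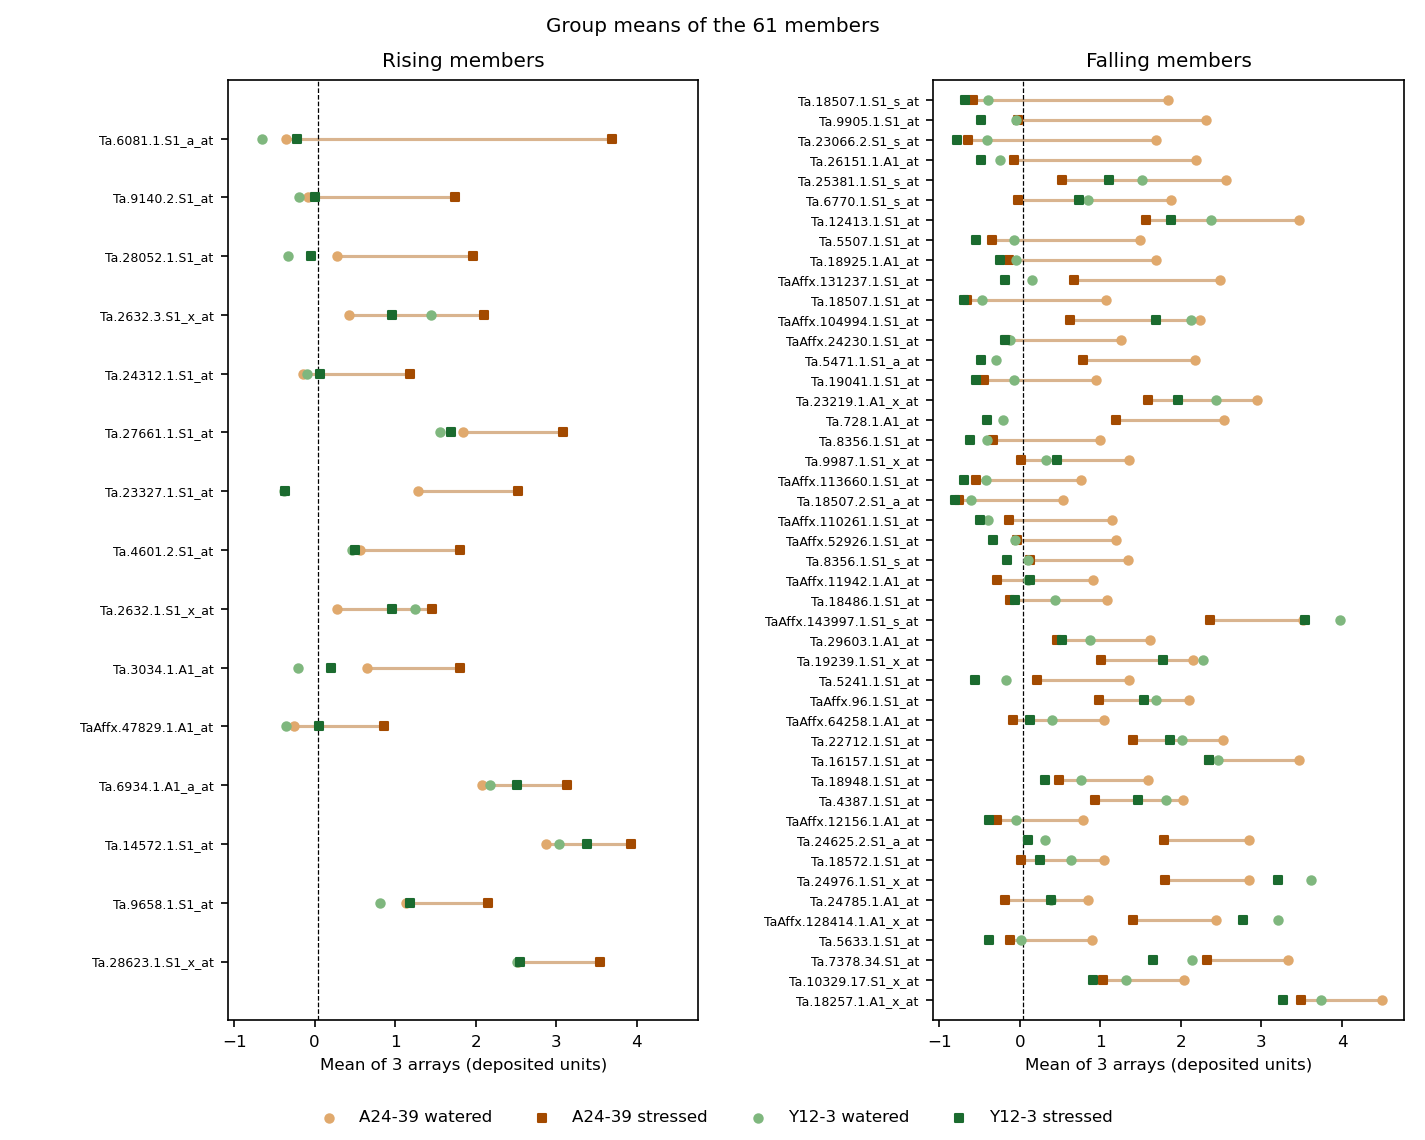
Mean of 3 arrays in each of the 4 groups, in deposited units, for the 15 rising members (left) and 46 falling members (right), ordered by the size of the A24-39 difference. The bar joins the well-watered and stressed A24-39 means, and the dashed line is the background level of 0.04. Green Y12-3 symbols lie near or beyond the left, lower end of the bar for most members on both sides.

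The difference between genotypes averaged over both watering regimes was tested, since with equal group sizes its error is independent of the errors that chose the members. It is not free of the rule all the same, so the calls are given as a description. A response present in A24-39 and not in Y12-3 must leave a genotype difference in at least 1 regime. Where well-watered roots were alike, such a response puts this average below 0 for rises and above 0 for falls. Of the 15 rising members, 10 were within 0.5 between genotypes in well-watered roots. The mean was lower in Y12-3 for 9 of 15 rising members, beside 5.76% of all probe sets, and higher for none of them, beside 6.97% (limma, adjusted p under 0.05). Among the 46 falling members it was lower in Y12-3 for 24 and higher for 3. The median genotype difference was -0.64 for rising and -0.51 for falling members, against -0.01 over all probe sets, and 14 of 15 and 38 of 46 were below 0. Neither Y12-3 group was above background for 19 of the 24 falling members called lower. A Y12-3 fall there is a lower bound, so the rule may favour such members.

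Ta.23327.1.S1_at had the largest genotype difference of the rising members. Its Y12-3 values lay between -0.48 and -0.15 in all 6 arrays, all under background. In A24-39 it read 1.0, 0.64 and 2.23 well-watered and 2.66, 2.84 and 2.08 stressed, so its 2 A24-39 groups overlapped through replicate 3 of each. The genotype difference was -2.28 ± 0.24 (limma adjusted p = 0.000129). The A24-39 difference of 1.24 ± 0.34 passed the threshold (limma adjusted p = 0.0426) but not in 12 of the alternatives run. Ta.6081.1.S1_a_at followed with a genotype difference of -2.09 ± 0.13. Y12-3 minus A24-39 was -0.28 in well-watered and -3.91 in stressed roots, so the average comes mainly from the response that chose this member.

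Of the falling members, Ta.728.1.A1_at and Ta.24625.2.S1_a_at had the largest differences with Y12-3 lower. Ta.728.1.A1_at read 2.48, 2.47 and 2.68 in well-watered and 1.19, 1.45 and 0.94 in stressed A24-39, and between -0.55 and 0.09 in Y12-3. Ta.24625.2.S1_a_at read 3.30, 2.73 and 2.52 in well-watered and 1.91, 2.29 and 1.16 in stressed A24-39, and between -0.07 and 0.50 in Y12-3. In both, every A24-39 array lay above every Y12-3 array in either regime, and the 2 A24-39 groups did not overlap. The genotype differences were -2.18 ± 0.10 (limma adjusted p = 9.95e-07) and -2.11 ± 0.20 (limma adjusted p = 6.18e-05). In these 2 and in TaAffx.131237.1.S1_at, Ta.5471.1.S1_a_at, Ta.5241.1.S1_at and Ta.7378.34.S1_at, the Y12-3 mean lay beyond the stressed A24-39 level by more than 0.25 of the A24-39 difference.

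The 2 members annotated to LOC100049018 went the other way. Ta.24976.1.S1_x_at gave 3.84, 4.0 and 3.0 for well-watered Y12-3 and 3.52, 2.95 and 3.15 for the stressed plants. For A24-39 it gave 3.33, 3.07 and 2.13 and then 2.20, 1.61 and 1.60. TaAffx.128414.1.A1_x_at gave 3.39, 3.56 and 2.68, then 3.17, 2.48 and 2.67, then 2.92, 2.61 and 1.79, then 1.74, 1.24 and 1.25 in the same order of groups. Replicate 3 was the lowest well-watered array of each genotype in both. In Ta.24976.1.S1_x_at that array of A24-39 fell among the stressed ones, and in TaAffx.128414.1.A1_x_at it stayed just above them.

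Y12-3 was higher in both probe sets, by 1.08 ± 0.24 (limma adjusted p = 0.0142) and 1.07 ± 0.22 (limma adjusted p = 0.0105). Their A24-39 differences of -1.04 ± 0.34 and -1.03 ± 0.32 missed the threshold (limma adjusted p = 0.0843 and 0.0674). With replicate 3 of well-watered A24-39 left out they were -1.40 and -1.35 and passed. Without replicate 3 of well-watered Y12-3, however, the Y12-3 differences were -0.71 and -0.70, and neither probe set met the rule. Each met it in 6 of the 12 choices that left out 1 array. The symbol has 28 probe sets on the array, of which 3 had all 4 groups above background, and over the 28 the A24-39 difference ranged from -1.04 to 0.14 with a median of 0.01. The third member called higher in Y12-3 was TaAffx.143997.1.S1_s_at, named after its values were seen, at 0.82 ± 0.14 (limma adjusted p = 0.00335).

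Other probe sets of the same transcript clusters bear on how far a member stands for its gene. The 61 members came from 57 clusters, of which 40 have 1 probe set on the array. The other 17 clusters held 157 probe sets that were not members, 65 of them with no group above background. The sign in A24-39 was that of the member in 111 of the 157, and the size also reached 0.5 in 54. These totals mainly describe clusters TaAffx.128414, Ta.10329 and Ta.7378, which held 58, 38 and 37 of the 157. The sign was that of the member in 18, 36 and 35 of these, and the size also reached 0.5 in 0, 25 and 19.

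In cluster Ta.23066, chosen here after its values were seen, the probe sets disagreed about Y12-3. The member Ta.23066.2.S1_s_at differed by -2.32 in A24-39 and -0.37 in Y12-3. Ta.23066.1.S1_s_at differed by -2.51 and -3.02, and Ta.23066.1.S1_x_at by -2.23 and -2.40, and limma called these responses in both genotypes. In well-watered Y12-3 these 2 had means of 2.43 and 2.1, near 1.89 and 1.98 in well-watered A24-39, where the member was at -0.41 in Y12-3 and 1.69 in A24-39. The cluster as a whole was thus not a response of A24-39 alone. Why the member differs from the other probe sets was not tested.

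Cluster Ta.5633 gave a milder case. The member Ta.5633.1.S1_at differed by -1.01 in A24-39 and -0.40 in Y12-3, from a Y12-3 level at background. Ta.5633.1.S1_a_at differed by -1.60 and -1.21 and Ta.5633.1.S1_x_at by -1.12 and -0.61, and both were called in both genotypes. Other clusters varied. Ta.2632.2.S1_x_at differed by 1.44 in A24-39 and -0.58 in Y12-3, which only the Y12-3 threshold kept out, and Ta.6770.1.S1_at by -0.75 and 0.08 beside -1.90 and -0.11 for the member Ta.6770.1.S1_s_at. Ta.4601.1.S1_s_at, beside the member annotated to LOC780595, had means of 3.07 to 3.78 and differed by 0.44 and 0.25, neither called by limma. Beside 1.05 and 0.34 for the member Ta.6934.1.A1_a_at, Ta.6934.1.A1_x_at differed by 0.82 and 0.20, Ta.6934.2.A1_x_at by 0.54 and 0.13 and Ta.6934.3.S1_x_at by 0.24 and 0.52. In Ta.8356, where the rule chose 2 of 4 probe sets, the other 2 had no group above background.

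**Figure D5:**
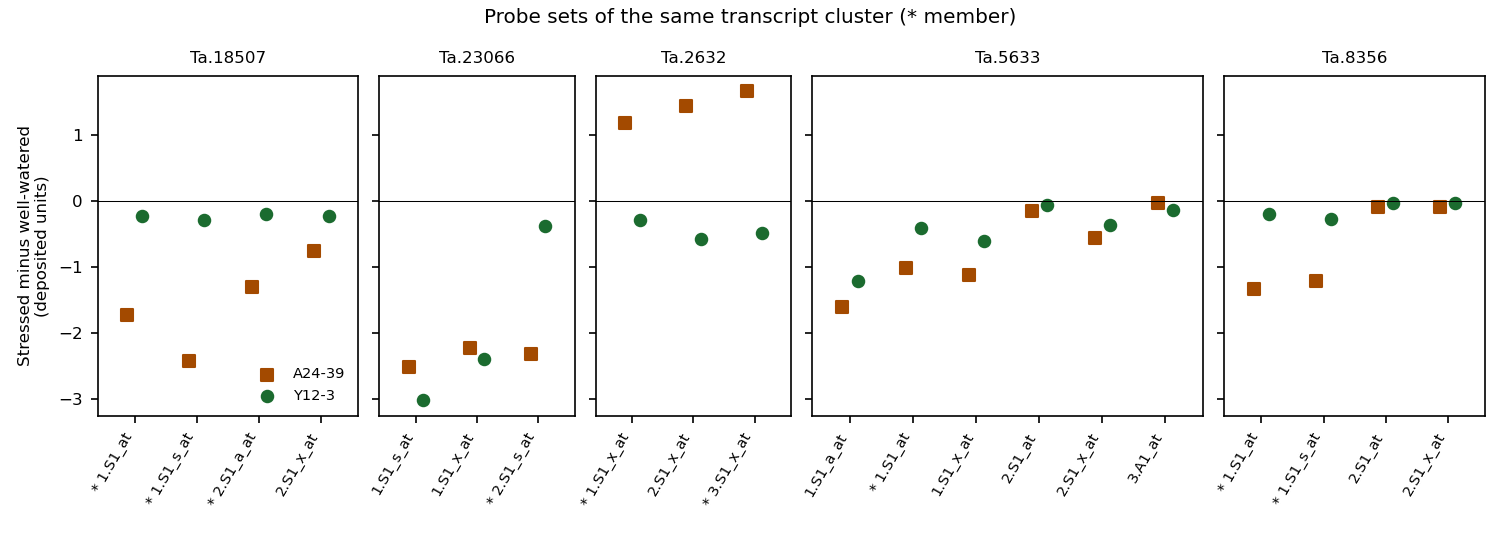
Stressed minus well-watered difference, in deposited units, in A24-39 (squares) and Y12-3 (circles) for every probe set of 5 transcript clusters, with members marked by an asterisk. In Ta.23066 the 2 probe sets that are not members have Y12-3 differences of -3.02 and -2.40, where the member has -0.37.

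Ta.10329 and Ta.7378, clusters with many probe sets, showed small falls across most of them. Ta.10329 has 39 probe sets with a median difference of -0.56 in A24-39 and -0.30 in Y12-3, and 37 and 35 of them were below 0. The A24-39 response was called for 23, the Y12-3 response for 8 and the difference between responses for none (limma). Ta.7378 has 38 probe sets with medians of -0.52 and -0.17, of which 36 and 31 were below 0, and limma called 25, 1 and none. The largest cluster, TaAffx.128414, did not: of its 59 probe sets 19 were below 0 in A24-39, with a median of 0.02 and none called, and 49 of the 58 that were not members had no group above background. Each of the 3 gave 1 member, TaAffx.128414.1.A1_x_at as above, Ta.10329.17.S1_x_at at -1.01 and -0.40 and Ta.7378.34.S1_at at -1.01 and -0.49. Probe sets numbered within 1 cluster share sequence and are not independent.

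The kinds of probe set among the members were set beside those on the array. Probe sets that can bind several transcripts (suffix s) were 9.84% of members against 4.28% of all, those with probes in common with unrelated sequences (suffix x) 16.4% against 11.1%, and those of one gene's variants (suffix a) 8.2% against 5.43%. Probe sets with the TaAffx prefix were 21.3% of members against 48.6% of all. No test was made of these shares.

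The members varied more between replicate arrays than most probe sets. The residual SD within groups had a median of 0.318 for rising members (range 0.126 to 0.482) and 0.290 for falling members (range 0.0671 to 0.791). It was 0.0574 over all probe sets and 0.115 over the 21772 with at least 1 group above background, and all 61 members exceeded the first of these. The steadiest falls were those of Ta.5507.1.S1_at and TaAffx.24230.1.S1_at, named after their values were seen. Ta.5507.1.S1_at read 1.43, 1.53 and 1.53 in well-watered and -0.33, -0.36 and -0.36 in stressed A24-39, a difference of -1.84 ± 0.05, beside -0.46 ± 0.05 in Y12-3 from a level already at background.

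Averaged over the members, the A24-39 groups were apart in every array. The rule chose the members by these same arrays, so these averages describe the choice and give no support for it. The mean of the 15 rising members was 2.54, 2.13 and 2.33 in the 3 stressed A24-39 arrays and between 0.70 and 1.03 in the other 9. The mean of the 46 falling members went from 1.83, 1.95 and 1.89 to 0.49, 0.52 and 0.50 in A24-39 arrays and from 0.82, 1.06 and 0.57 to 0.36, 0.67 and 0.52 in those of Y12-3. Well-watered A24-39 stood apart, and replicate 3 was the lowest of the well-watered Y12-3 arrays.

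To see how the choice held in arrays it had not used, the rule was applied to 2 replicate numbers and read in the other. Rules that left out replicates 1, 2 and 3 chose 12, 13 and 30 rising probe sets. Their median A24-39 difference was 1.15, 1.5 and 1.28 in the arrays used and 1.05, 0.99 and 1.12 in the arrays left out. The sign was kept in 11, 13 and 23 of them, but the whole rule was met in the left-out arrays by only 5, 5 and 2.

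The same choice of falls gave 80, 50 and 51 probe sets, with medians of -1.19, -1.26 and -1.19 in the arrays used and -1.06, -0.88 and -0.52 in those left out. The sign was kept in 77, 49 and 40, and the whole rule was met by 18, 13 and 17. With replicate 1 left out, the median Y12-3 difference went from -0.30 in the arrays used to -0.81 in replicate 1. A size of 1.0 or more in A24-39 recurred in 43, 23 and 22 of the falls and in 6, 6 and 15 of the rises. A Y12-3 difference under 0.5 in size recurred in 26, 37 and 40 of the falls and in 10, 11 and 11 of the rises. The median A24-39 size was smaller in the arrays left out in each of these 6 choices. The same counts were not made for other probe sets, so recurrence here is not shown to be particular to these choices.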

How the data were processed

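Total RNA from roots was hybridised to Affymetrix wheat arrays, 1 colour, 3 arrays in each of 4 groups taken from the labels. The deposited values are a score per probe set and array, made by the authors with RMA per the submitters' processing notes. No source used here states its version, log base, centring or scaling, and the values were used as deposited. The 175 control probe sets (111 AFFX, 64 RPTR) of 61290 were left out. Members were chosen by differences of group means. They and the gene lists were chosen with earlier results of these data known.

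A linear model of 4 group means over 12 arrays was fitted with limma 3.58.1 in R 4.3.3 (lmFit, eBayes, 8 residual degrees of freedom), with Benjamini-Hochberg adjustment over 61115 probe sets and a threshold of 0.05. Errors are moderated SEs. The scripts were tested on simulated data. The number of arrays limits the precision. Same-numbered arrays of the 2 genotypes deviated together within each watering regime. Their correlations were 0.197 to 0.278 well-watered and 0.17 to 0.575 stressed, 3 pairs each. Differently numbered arrays gave -0.189 to -0.017 and -0.51 to 0.175. The highest, stressed Y12-3 replicate 1 with A24-39 replicate 3, was above the 0.17 of the replicate 1 pair. Same-numbered arrays were treated as pairs in an alternative.

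Probe sets were named by these rules: the 6 largest rises and falls by cluster, members with 1 symbol, the 4 largest rises and falls with all groups above background, the 2 largest genotype differences each way past the threshold, clusters with 3 or more members, and the 2 nearest each threshold on either side. Entrez numbers and accessions of the annotation matched 0 entries of the RefSeq table, and no sequence was used. Alternatives left out each array, used medians, quantile normalization, a filter on dim probe sets, array weights, a variance trend, replicate blocks and, chosen after seeing the data, a shift to the spike-in controls and both well-watered replicate 3 arrays left out.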

Additional observations from a re-analysis of the deposited data

Results flagged for a closer look

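The response of Y12-3 differed from that of A24-39 in limma's test of that difference for 11 members. The choice of members used this contrast, so the values are a description. For Ta.6081.1.S1_a_at the Y12-3 response minus the A24-39 response was -3.63 ± 0.26 (adjusted p = 0.000432). The other 10 were falling members, with the response higher in Y12-3.

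TaAffx.24230.1.S1_at and Ta.5507.1.S1_at, at 1.36 and 1.38 (limma adjusted p = 7.71e-05 for each), had the smallest p of these. The largest of these differences were 1.95 for Ta.23066.2.S1_s_at, 1.64 for Ta.18925.1.A1_at and 1.5 for Ta.18507.1.S1_at. The others were 1.19 for TaAffx.110261.1.S1_at, 1.03 for TaAffx.113660.1.S1_at, 0.95 for TaAffx.52926.1.S1_at, 0.93 for Ta.19041.1.S1_at and 0.71 for TaAffx.12156.1.A1_at. In all 10 both Y12-3 group means were at or under the background of 0.04, so their Y12-3 falls are lower bounds in size. The Y12-3 fall was itself called by limma for Ta.5507.1.S1_at, Ta.19041.1.S1_at, TaAffx.12156.1.A1_at and TaAffx.52926.1.S1_at.

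With same-numbered arrays paired within each watering regime, TaAffx.52926.1.S1_at and TaAffx.113660.1.S1_at missed the threshold (limma adjusted p = 0.0616 and 0.0554). Over the choices that left out 1 array, the largest limma adjusted p was 0.124 for TaAffx.12156.1.A1_at, 0.0845 for TaAffx.52926.1.S1_at, 0.142 for TaAffx.113660.1.S1_at, 0.0972 for TaAffx.110261.1.S1_at and 0.114 for Ta.18507.1.S1_at, and under the threshold for the other 6.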

How the results depend on the processing

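Of 362 counts recomputed under an alternative, 313 stayed within 1.5 times the count reported. This compares the size of a count and not which members make it up. With medians of the arrays the rule found 57 falling members, of which 30 were among the 46. Many of the counts use the contrasts that chose the members, so the tally gives no support for the choice. Of 897 values of named members, 60 lost and 23 gained a call. None with a call in either fit changed sign, and changes of sign without a call were not counted. The rule found 8 rising and 22 falling members with a Y12-3 difference under 0.3, and 4 and 12 with an A24-39 difference of 1.5 or more. Leaving out each array gave 11 to 21 rising and 34 to 66 falling members, and 3 rising and 14 falling members stayed in every time. The extremes came without stressed A24-39 replicate 1 (11), stressed Y12-3 replicate 3 (21), stressed Y12-3 replicate 2 (34) and well-watered A24-39 replicate 3 (66).

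Leaving out 1 array gave 9 to 13 A24-39 calls in rising and 32 to 40 in falling members. Y12-3 calls were 0 to 3 and 3 to 14, and calls of the difference in response 1 to 2 and 5 to 15. Over all probe sets, the last of these ranged from 10 to 101 with a lower and 10 to 524 with a higher response in Y12-3. Leaving out 1 array put 0 to 1 rising members near the stressed A24-39 level. It left 2 to 5 rising members with no Y12-3 group above background. Tag and tryptophan controls alone made that 2 rising and 12 falling. Y12-3 calls were 5 rising and 2 falling after the shift to the spike-in controls, 1 and 15 without both well-watered replicate 3 arrays, and 1 rising with a variance trend. Calls of the difference in response were 5 rising and 19 falling with array weights and 4 and 16 after the spike-in shift. They were 6 and 17 without both well-watered replicate 3 arrays, and 2 rising with a variance trend. Over all probe sets, array weights gave 213 such calls with a lower and 655 with a higher response in Y12-3. The spike-in shift gave 25 and 92, and a variance trend 58 and 82. Without both arrays they were 365 and 1399, against 19 and 33 in the fit reported above. The cause was not tested.

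With the replicate block the mean genotype difference was lower in Y12-3 for 10 rising and 24 falling members. With the replicate block within each watering regime it was lower for 10 and 26 and higher for 5 falling ones. Responses then differed for 6 rising and 14 falling members, beside 63 of all probe sets with a lower and 90 with a higher response in Y12-3. Over all alternatives 7 to 10 rising and 24 to 26 falling members were lower in Y12-3. The spike-in shift moved the median Y12-3 response of all probe sets by 0.11, and genotype calls over all probe sets from 4257 higher and 3519 lower to 4577 and 1532. Signal over background limits the 19 falling members with no Y12-3 group above it.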
